A study of Homo sapiens with 6 samples.

Results

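Integrins and the proteins of focal adhesions were followed in HFL-1, a fibroblast line derived from human fetal lung, after knockdown of TAZ, the transcriptional coactivator encoded by WWTR1. The 37 genes described here, 17 integrin subunits and 20 focal adhesion proteins, were taken by gene symbol from a list of autosomal members and were all found among the 23355 genes of the table. The cells were transfected with a negative control siRNA (siNTC) or with either of 2 TAZ siRNAs (siTAZ #1 and siTAZ #2), and RNA was sequenced 48 h later in 2 libraries per group, 6 in all. The submitters describe the 2 libraries of a group as biological replicates. All groups share the same cell line and the same transfection reagent.

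Integrins are heterodimers of an α and a β subunit that bind the extracellular matrix outside the cell. Inside the cell, talin and kindlin bind the β tail and bring the integrin into its active state, vinculin and α-actinin tie talin to actin stress fibers, and the ILK-PINCH-parvin complex and the kinase FAK, with paxillin and p130Cas, relay signals from the adhesion. Zyxin and other LIM proteins, with the actin regulator VASP, act where stress fibers end at the adhesion. In fibroblasts this machinery carries the pull of the cell on the matrix, and TAZ is known to respond to such tension.

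The total counts ranged from 15648055 to 32078188 per library. WWTR1, the targeted gene, was at 132 and 131 CPM (read counts scaled to library size, after TMM normalization) with siNTC, at 26.4 and 28.4 CPM with siTAZ #1 and at 46.1 and 43.1 CPM with siTAZ #2, lower by 4.8-fold and 2.95-fold. All 10 fibroblast markers examined were above 1 CPM in every library, whereas 5 of 9 epithelial, 3 of 5 endothelial and 4 of 5 leukocyte markers were at or under 1 CPM in all libraries. In siTAZ #1 replicate 2 the genes from RANGAP1 on chromosome 22 through X and Y held 0.246% of the counts against 3.58% to 3.74% in the other libraries. None of the 37 genes lies there, but these genes entered the shared estimate of the spread, and the common dispersion was 0.0807 with them and 0.0164 without them. Calls were made with edgeR's quasi-likelihood test across all 14053 genes that passed its filter on low counts, at a false discovery rate (FDR) under 0.05 after Benjamini-Hochberg adjustment, and calls that change when the affected genes are left out are given beside them. With 2 libraries against 2, no permutation test could reach a p under 0.05. In bulk RNA, fewer cells of a type and less RNA per cell cannot be told apart.

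Of the 37 genes, 36 passed the filter. ITGA9, the α9 subunit, did not, with counts of 0, 1, 5, 7, 1, 2 in the libraries of siNTC, siTAZ #1 and siTAZ #2 in turn, and it was not tested. Levels of different genes were compared per kb of the canonical transcript in the siNTC libraries. ITGB1, the β1 subunit shared by most matrix-binding integrins, was the highest of the 37 at 721 CPM per kb. It was followed by CSRP1 at 339, ACTN1 at 330.0, ITGA5 at 252 and ILK at 249 CPM per kb. The place of ILK is uncertain, since 86.9% of its canonical exon bases are shared with TAF10. Among the α subunits, ITGA5 stood above ITGA3 at 53.4 and ITGAV at 27.6 CPM per kb. The lowest levels belonged to ITGA8 at 0.246, ITGB4 at 0.0214 and ITGA9 at 0.00401 CPM per kb.

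**Figure D1:**
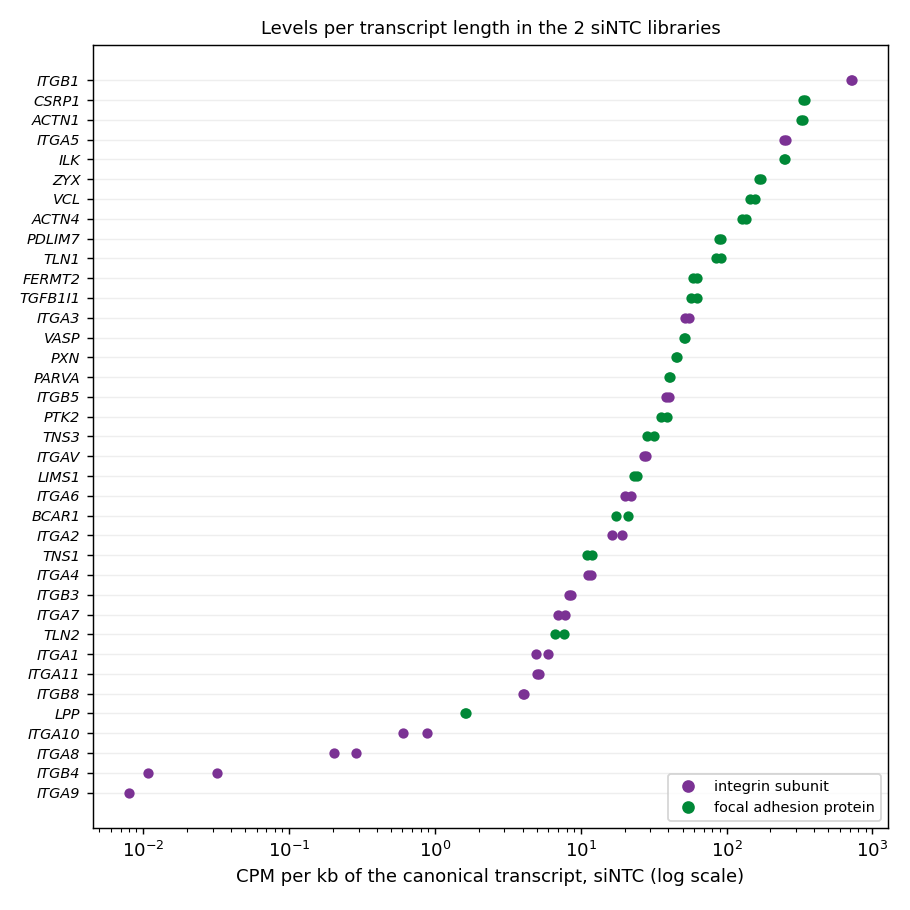
Levels of the 37 genes with siNTC, as CPM per kb of the canonical transcript on a log scale, with 1 point per library and genes sorted by mean. ITGB1 stands highest at 721 CPM per kb and ITGA9 lowest, with 1 of its libraries at 0 and not drawn.

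In the comparison of siTAZ #1 with siNTC, 13 of the 36 genes tested were called, 36.1% against 20.6% of all genes tested. The 6 that fell were ITGA5, ITGB8, ACTN4, TNS1, TNS3 and CSRP1, and the 7 that rose were ITGA2, ITGA8, ITGAV, ITGB5, LIMS1, BCAR1 and LPP. Lower calls made up 16.7% of the members against 9.78% of all genes, and higher calls 19.4% against 10.8%. The median log2 fold change of the 36 genes was −0.06, beside 0.02 over all genes. With the genes from RANGAP1 onward left out, 17 were called, 9 lower and 8 higher, against 30.5% of all genes, and those added were ITGA1, ITGA3, TLN2 and FERMT2. An offset for GC content gave 9 lower and 7 higher, against 11.7% and 11.3% of all genes. ITGA4, FERMT2 and PDLIM7 were added on the lower side, and on the higher side ITGB3 was added and LIMS1 lost. The call of ITGA5, TNS3, CSRP1, ITGA2, ITGB5 and LPP held under every alternative run, while without siNTC replicate 1 or without siNTC replicate 2 these were the 6 calls left. In those settings 4.05% and 4.02% of all genes were called. edgeR's exact test on 4 libraries called 7 of the members and 7.41% of all genes.

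With siTAZ #2, 23 of the 36 genes were called, 63.9% against 28.5% of all genes tested. The 10 that fell were ITGA3, TLN1, TLN2, FERMT2, VCL, PARVA, PTK2, PXN, ZYX and VASP. The 13 that rose were ITGA2, ITGA7, ITGA10, ITGA11, ITGAV, ITGB3, ITGB4, ITGB5, ITGB8, LIMS1, BCAR1, LPP and PDLIM7. Lower calls made up 27.8% of the members against 14.4% of all genes, and higher calls 36.1% against 14.1%. Of the groups by role, 9 of the 16 integrin subunits tested were called higher and 1 lower, while 4 of the 20 focal adhesion proteins were called higher and 9 lower. ITGB4 passed the filter on low counts through its siTAZ libraries alone, and without it 8 of 15 subunits were higher and 12 of 35 genes in all. The median log2 fold change of the 36 genes was −0.07, with 0.93 for the integrin subunits (0.90 without ITGB4) and −0.27 for the focal adhesion proteins, beside 0.02 over all genes. Without the affected genes 26 were called, 14 lower and 12 higher, against 38.7% of all genes, with ITGA1, ITGA4, ITGB1 and ACTN1 added on the lower side and LIMS1 lost. An offset for GC content gave 15 lower and 9 higher, against 17.2% and 13.3% of all genes. With that offset, 8 integrin subunits were higher and 4 lower, and 1 focal adhesion protein was higher and 11 lower. ITGA7, ITGA10, ITGAV, ITGB3, ITGB5, TLN1, TLN2, VCL, PXN and LPP were called under every alternative run, and the count was 12 without siNTC replicate 1, 11 without siNTC replicate 2 and 15 without siTAZ #2 replicate 2, where 10.2%, 9.66% and 13% of all genes were called. The 3 smooth muscle markers summed to 241 to 256 CPM with siTAZ #2, to 444 to 467 CPM with siNTC and to 463 to 554 CPM with siTAZ #1. ACTG2 alone was lower with siTAZ #2, at 220 and 239 CPM against 434 and 456 CPM with siNTC, whereas MYH11 was at 15.5 and 11.4 CPM against 7.8 and 8.9 CPM and DES at 4.95 and 5.13 CPM against 2.16 and 2.9 CPM. The 5 leukocyte markers summed to 38 to 48.4 CPM with siTAZ #2 against 73.8 to 75.4 CPM with siNTC, nearly all CD68 with PTPRC at most 0.13 CPM, and the 5 endothelial markers to 26.1 to 31.3 CPM against 42.1 to 42.5 CPM, mostly TEK with PECAM1 at most 0.52 CPM. The 10 fibroblast markers summed to 23300 to 24200 CPM with siTAZ #1 and 27300 to 29000 CPM with siTAZ #2, and to 35000 CPM in both siNTC libraries, most of it from COL1A1, COL1A2, COL3A1 and VIM. Not all of these markers were lower. PDGFRA, PDGFRB and FAP were above siNTC with both siRNAs, PDGFRA at 1370 and 1424 CPM with siTAZ #1 against 447 and 401 CPM with siNTC. COL1A1 and THY1 were above siNTC with siTAZ #2 only, COL1A1 at 10435 and 10925 CPM against 8915 and 9700 CPM. The 9 epithelial markers summed to 59.4 to 65 CPM with siTAZ #2 and 46.1 to 46.6 CPM with siNTC, mostly KRT18 and KRT8, with CDH1 at most 0.51 CPM. The part of these markers in the differences was not tested. Both comparisons use the same siNTC libraries.

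**Figure D2:**
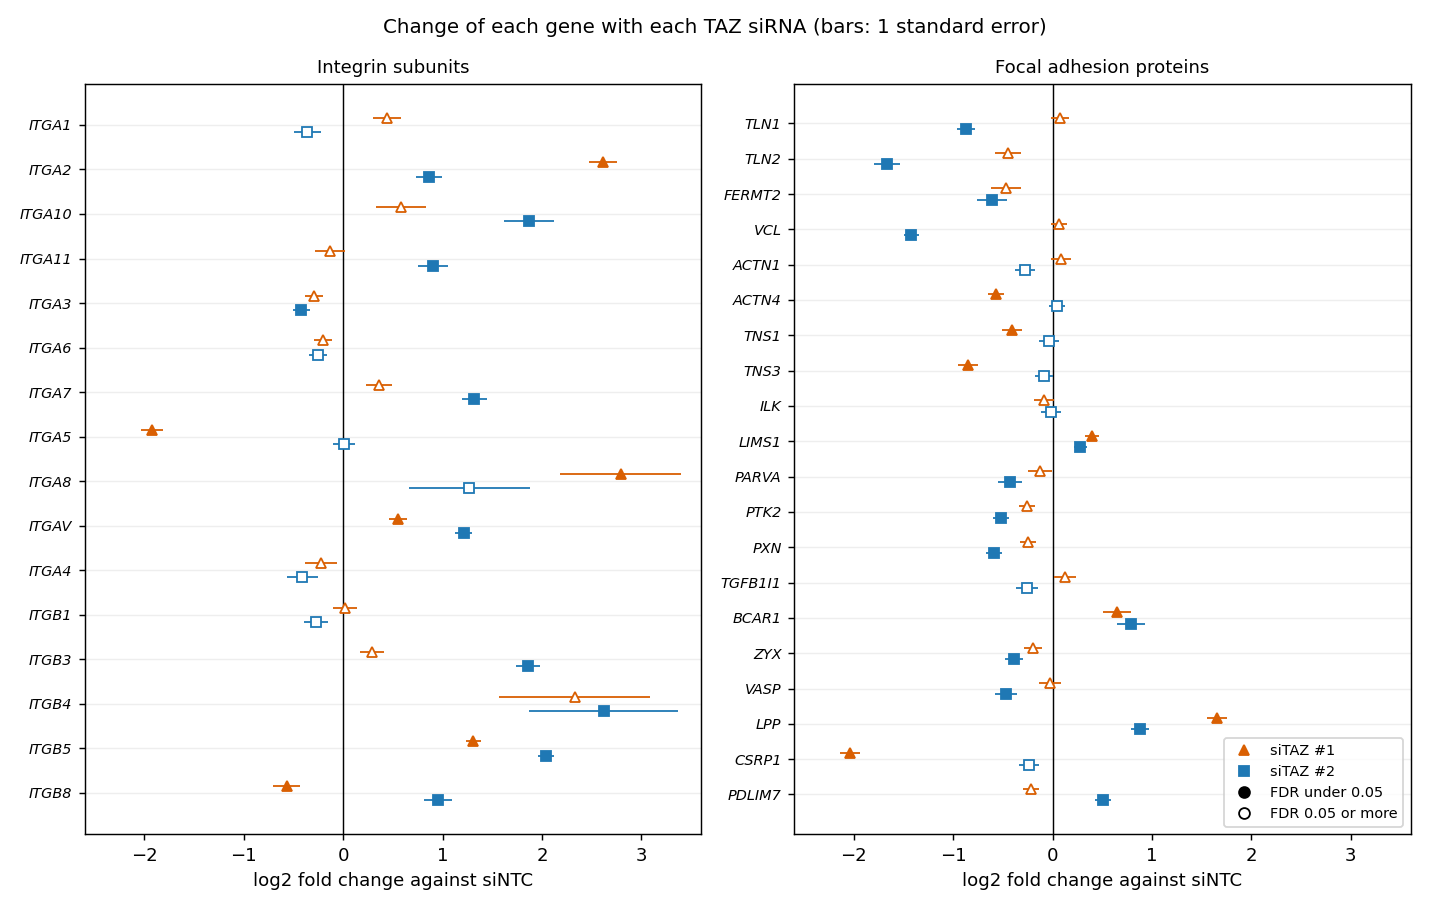
Log2 fold change of each of the 36 genes tested against siNTC, with bars of 1 standard error, integrin subunits on the left and focal adhesion proteins on the right. Filled symbols mark an FDR under 0.05, and with siTAZ #2 the subunits lie mostly to the right of 0 and the focal adhesion proteins mostly to the left, while ITGA5 and CSRP1 lie near −2 with siTAZ #1 and near 0 with siTAZ #2.

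The 250 bases before the RefSeq transcription start of GRCh38.p14 are shown for 5 genes with large changes, chosen after their values were seen, to put the regulatory sequence beside the values that follow. ITGA5 fell with siTAZ #1, VCL and TLN2 fell with siTAZ #2, and ITGA2 and LPP rose with both. The windows are at chr12:54419267-54419516 on the minus strand for ITGA5, and on the plus strand at chr10:73997866-73998115 for VCL, chr15:62390300-62390549 for TLN2, chr5:52989102-52989351 for ITGA2 and chr3:188212462-188212711 for LPP. Each is written 5′ to 3′ on the strand of the gene and ends next to the start. Capitals mark matches to GGAATG, the core letters bound by TEAD factors, the DNA-binding partners of TAZ, to TGANTCA, the AP-1 site, and to the CArG box of serum response factor, each searched on both strands.
ITGA5: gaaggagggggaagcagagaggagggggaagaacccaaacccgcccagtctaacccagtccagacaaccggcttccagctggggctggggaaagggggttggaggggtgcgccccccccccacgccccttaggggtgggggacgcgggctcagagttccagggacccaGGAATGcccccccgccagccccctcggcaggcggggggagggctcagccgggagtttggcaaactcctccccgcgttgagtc
VCL: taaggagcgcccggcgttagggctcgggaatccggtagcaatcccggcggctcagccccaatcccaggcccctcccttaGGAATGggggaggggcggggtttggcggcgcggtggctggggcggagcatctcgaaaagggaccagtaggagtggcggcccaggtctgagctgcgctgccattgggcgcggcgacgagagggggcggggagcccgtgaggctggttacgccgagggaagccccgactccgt
TLN2: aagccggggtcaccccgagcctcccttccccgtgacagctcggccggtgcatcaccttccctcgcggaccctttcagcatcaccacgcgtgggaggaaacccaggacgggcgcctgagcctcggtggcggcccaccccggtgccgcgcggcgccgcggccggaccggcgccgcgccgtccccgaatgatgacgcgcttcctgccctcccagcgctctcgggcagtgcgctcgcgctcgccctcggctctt
ITGA2: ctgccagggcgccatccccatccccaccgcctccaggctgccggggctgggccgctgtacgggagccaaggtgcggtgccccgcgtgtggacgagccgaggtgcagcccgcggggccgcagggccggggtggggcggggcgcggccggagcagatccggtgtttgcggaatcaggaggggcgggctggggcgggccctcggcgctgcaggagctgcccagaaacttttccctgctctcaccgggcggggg
LPP: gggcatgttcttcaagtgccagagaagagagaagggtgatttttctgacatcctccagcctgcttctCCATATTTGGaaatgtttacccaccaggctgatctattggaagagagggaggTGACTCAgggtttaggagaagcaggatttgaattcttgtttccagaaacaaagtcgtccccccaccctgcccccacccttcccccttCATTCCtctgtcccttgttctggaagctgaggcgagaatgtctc
The match in the ITGA5 window begins 82 bases before the start and that in the VCL window 171 bases before it. The TLN2 and ITGA2 windows hold none of these motifs. LPP has 7 listed starts, and the window shown is the one with most matches, chosen after the matches were seen. It holds a CArG box beginning 183 bases before the start, an AP-1 site at 131 and a GGAATG match on the other strand at 44. RefSeq windows were found for 30 of the 37 genes, 63 windows in all. ITGA3, ITGA7, ITGA9, ITGB3, ITGB4, PTK2 and PARVA had none. GGAATG was present in 11 of the 63 windows, from 9 genes, and in 11.9% of all 35116 windows. TGANTCA was in 6 windows and in 6.57% of all, and the CArG box in 3 and in 1.16% of all. These matches describe letters and were not tested for binding.

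The α subunits ITGA1, ITGA2, ITGA10 and ITGA11 bind collagen, and 1 of these 4 was called with siTAZ #1 and 3 with siTAZ #2, all higher. Over all genes tested, 20.6% and 28.5% were called, and 10.8% and 14.1% were called higher. ITGA2, the α2 subunit of a major collagen receptor, was at 151 and 128 CPM with siNTC, 771 and 932 CPM with siTAZ #1 and 245 and 259 CPM with siTAZ #2. Its 3 groups did not overlap, and siTAZ #1 was highest. ITGA2 rose 6.11-fold with siTAZ #1, a log2 fold change of 2.61 ± 0.14 (SE; FDR = 0.00065), and 1.81-fold with siTAZ #2, 0.86 ± 0.13 (FDR = 0.0065). ITGA10 and ITGA11, which bind fibrillar and other collagens in connective tissue cells, were called with siTAZ #2. ITGA10 was at 4.5 and 3.09 CPM with siNTC, 5.87 and 5.52 CPM with siTAZ #1 and 12.8 and 15 CPM with siTAZ #2. Its siTAZ #2 libraries lay above all others, 3.65-fold over siNTC (log2 1.87 ± 0.25, FDR = 0.0047), while the difference with siTAZ #1 was 0.58 ± 0.25 (FDR = 0.16). ITGA11 was at 52.7 and 50.9 CPM with siNTC, 52.4 and 42.3 CPM with siTAZ #1 and 88.4 and 105 CPM with siTAZ #2, so that siTAZ #1 overlapped with siNTC and siTAZ #2 stood above both. It rose by 0.90 ± 0.15 on the log2 scale with siTAZ #2 (FDR = 0.0084). ITGA1, the α1 subunit of the other widely expressed collagen receptor, was at 63.9 and 53.1 CPM with siNTC, 75.6 and 83.1 CPM with siTAZ #1 and 48.5 and 42.5 CPM with siTAZ #2. The siTAZ #1 libraries were above siNTC and the siTAZ #2 libraries below, with log2 differences of 0.44 ± 0.14 (FDR = 0.076) and −0.36 ± 0.14 (FDR = 0.1), neither of which was called. Both passed without the affected genes, at FDR = 0.026 and 0.045, and 4.65% of the canonical exons of ITGA1 are shared with PELO.

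Of the 3 laminin-binding subunits, none was called with siTAZ #1, while 1 fell and 1 rose with siTAZ #2. Over all genes tested, 20.6% were called with siTAZ #1, and 14.4% fell and 14.1% rose with siTAZ #2. ITGA3, which pairs with β1 as a receptor for laminins, was at 252 and 269.9 CPM with siNTC, 222 and 206 CPM with siTAZ #1 and 201 and 188 CPM with siTAZ #2. Both siTAZ groups lay lower than siNTC. It fell with siTAZ #2 (−0.42 ± 0.09, FDR = 0.016), and with siTAZ #1 the difference was −0.29 ± 0.09 (FDR = 0.065, and 0.04 without the affected genes). ITGA6, the other common laminin receptor subunit, ranged from 101.9 to 129.6 CPM over the 6 libraries and was not called with either siRNA. ITGA7, a laminin receptor subunit best known from muscle, was at 28.7 and 32.2 CPM with siNTC, 38 and 40 CPM with siTAZ #1 and 71.9 and 80.8 CPM with siTAZ #2. Its levels stood in the order siNTC, siTAZ #1, siTAZ #2 without overlap. It rose 2.5-fold with siTAZ #2 (1.32 ± 0.13, FDR = 0.0017), and the difference with siTAZ #1 was 0.36 ± 0.13 (FDR = 0.1). On the canonical transcript of ITGA7, 1.07% of the bases are shared with METTL7B.

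Of the subunits that recognize the RGD motif, ITGA5, the α5 subunit of the fibronectin receptor, was at 1094 and 1052 CPM with siNTC, 304 and 264 CPM with siTAZ #1 and 1012 and 1146 CPM with siTAZ #2. Both siTAZ #1 libraries were far below the rest, and siTAZ #2 overlapped with siNTC. It fell 3.78-fold with siTAZ #1 (−1.92 ± 0.11, FDR = 0.00082), and with siTAZ #2 the log2 difference was 0.01 ± 0.11 (FDR = 0.96). ITGAV, the αv subunit that pairs with β1, β3, β5 and β8 and takes part in the activation of latent TGF-β, was at 197 and 192 CPM with siNTC, 267 and 301 CPM with siTAZ #1 and 439 and 459 CPM with siTAZ #2. Its groups were separate, with siTAZ #2 highest. ITGAV rose by 0.55 ± 0.09 with siTAZ #1 (FDR = 0.011) and by 1.21 ± 0.09 with siTAZ #2 (FDR = 0.00087), and its fold was 1.46 and 2.31. ITGA8, the α8 subunit found in contractile mesenchymal cells, was low, at 1.9 and 1.33 CPM with siNTC, 10.5 and 11.9 CPM with siTAZ #1 and 1.73 and 6.16 CPM with siTAZ #2. The siTAZ #1 libraries lay above all others, and the libraries of siTAZ #2 stood apart from each other, with 1 inside the siNTC range. It rose 6.93-fold with siTAZ #1 (2.79 ± 0.61, FDR = 0.028), and with siTAZ #2 the difference was 1.27 ± 0.61 (FDR = 0.17). Outside the RGD-binding group, ITGA4, the α4 subunit that binds VCAM1 and fibronectin, ranged from 54.2 to 79.9 CPM and was not called. Its difference was −0.22 ± 0.16 (FDR = 0.38) for siTAZ #1 and −0.41 ± 0.16 (FDR = 0.11) for siTAZ #2. Without the affected genes the FDR with siTAZ #2 was 0.031. An offset for GC content gave −0.40 (FDR = 0.042) for ITGA4 with siTAZ #1 and −0.46 (FDR = 0.022) with siTAZ #2. Its canonical exons share 23.2% of their bases with CERKL.

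Among the β subunits, ITGB5, a partner of αv in vitronectin receptors, was at 178 and 172 CPM with siNTC, 449.7 and 417 CPM with siTAZ #1 and 702 and 741 CPM with siTAZ #2. The groups were separate and siTAZ #2 was highest. ITGB5 rose 2.48-fold with siTAZ #1 (1.31 ± 0.08, FDR = 0.00086) and 4.13-fold with siTAZ #2 (2.04 ± 0.08, FDR = 0.00037). ITGB3, the β3 partner of αv, was at 49.6 and 50.9 CPM with siNTC, 67.3 and 55.8 CPM with siTAZ #1 and 174 and 189 CPM with siTAZ #2. The siTAZ #2 libraries were well above all others, while the siTAZ #1 libraries lay just above siNTC. It rose 3.62-fold with siTAZ #2 (1.86 ± 0.12, FDR = 0.00068), and the difference with siTAZ #1 was 0.29 ± 0.12 (FDR = 0.13). ITGB8, whose αvβ8 dimer is known for binding latent TGF-β, was at 36.4 and 36.2 CPM with siNTC, 22.8 and 26.1 CPM with siTAZ #1 and 76.5 and 63.5 CPM with siTAZ #2. Here siTAZ #1 lay below siNTC and siTAZ #2 above it. ITGB8 fell with siTAZ #1 (−0.57 ± 0.14, FDR = 0.042) and rose with siTAZ #2 (0.95 ± 0.14, FDR = 0.0067). The call with siTAZ #1 was made in 9 of 17 alternatives, with FDR from 0.004 to 0.42. ITGB4, the β4 subunit of epithelial hemidesmosomes, had counts of 1, 3, 13, 17, 19, 12 in the libraries of siNTC, siTAZ #1 and siTAZ #2 in turn, all under 1 CPM. Both siTAZ groups were above siNTC, and ITGB4 passed the filter through its siTAZ libraries alone. The call with siTAZ #2 was close to the threshold (FDR = 0.048) and was lost with an offset for GC content (FDR = 0.071). ITGB1 ranged from 2104 to 2976 CPM and was not called, with 0.02 ± 0.12 (FDR = 0.93) for siTAZ #1 and −0.27 ± 0.12 (FDR = 0.15) for siTAZ #2, where FDR was 0.043 without the affected genes.

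**Figure D3:**
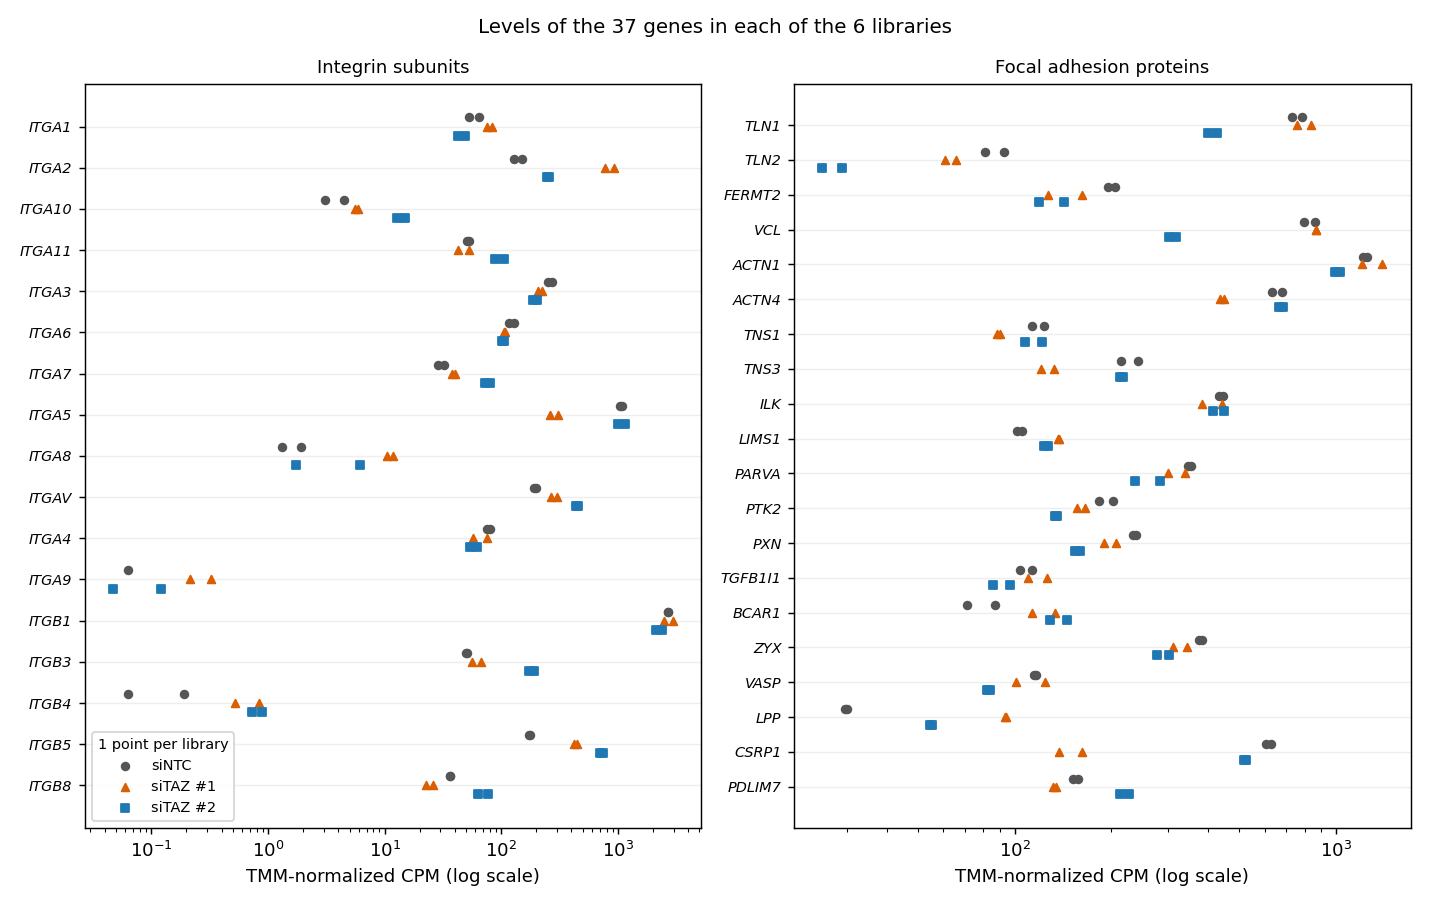
TMM-normalized CPM of the 37 genes in each of the 6 libraries on a log scale, with 1 point per library (circles siNTC, triangles siTAZ #1, squares siTAZ #2). ITGA5 and CSRP1 are low in both siTAZ #1 libraries, and VCL, TLN1 and TLN2 are low in both siTAZ #2 libraries. The siNTC library of ITGA9 with 0 counts is not drawn.

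Of the 8 proteins that link integrins to actin, 3 fell with siTAZ #1 and 4 with siTAZ #2, and none rose with either. The share of all genes that fell was 9.78% with siTAZ #1 and 14.4% with siTAZ #2, and the share that rose 10.8% and 14.1%. TLN1, the main talin of fibroblasts, was at 729.5 and 785 CPM with siNTC, 836 and 753 CPM with siTAZ #1 and 399.6 and 426 CPM with siTAZ #2. Its siTAZ #1 libraries overlapped with siNTC, and both siTAZ #2 libraries were lower. TLN1 fell 1.83-fold with siTAZ #2 (−0.87 ± 0.09, FDR = 0.0022), while the siTAZ #1 difference was 0.07 ± 0.09 (FDR = 0.63). TLN2, the second talin, was at 80.6 and 92.8 CPM with siNTC, 65.8 and 60.8 CPM with siTAZ #1 and 29.1 and 25.2 CPM with siTAZ #2. The 3 groups descended in that order without overlap. It fell 3.19-fold with siTAZ #2 (−1.67 ± 0.13, FDR = 0.001), and with siTAZ #1 it differed by −0.45 ± 0.13 (FDR = 0.06, and 0.013 without the affected genes). VCL, or vinculin, which binds stretched talin and actin, was at 798 and 859.7 CPM with siNTC, 863 and 866 CPM with siTAZ #1 and 319 and 302 CPM with siTAZ #2. Only the siTAZ #2 libraries were below siNTC. VCL fell 2.67-fold with siTAZ #2 (−1.42 ± 0.08, FDR = 0.00063), and the siTAZ #1 difference was 0.06 ± 0.08 (FDR = 0.62). FERMT2, the kindlin of fibroblasts, was at 195 and 205 CPM with siNTC, 127 and 162 CPM with siTAZ #1 and 143 and 119.5 CPM with siTAZ #2. Each siTAZ library was below both siNTC libraries. It fell with siTAZ #2 (−0.61 ± 0.15, FDR = 0.028), and with siTAZ #1 the difference was −0.47 ± 0.15 (FDR = 0.074, and 0.0092 without the affected genes).

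For ACTN4 and the tensins, siTAZ #1 was the lower group. ACTN4, a non-muscle α-actinin, was at 634 and 680.5 CPM with siNTC, 437 and 447 CPM with siTAZ #1 and 665 and 684 CPM with siTAZ #2. Its siTAZ #2 libraries overlapped with siNTC, and its siTAZ #1 libraries were below. ACTN4 fell 1.49-fold with siTAZ #1 (−0.57 ± 0.08, FDR = 0.0064), and 17.3% of its canonical exons are shared with CAPN12. TNS3, a tensin that binds integrin β tails and actin, was at 215 and 242 CPM with siNTC, 133 and 121 CPM with siTAZ #1 and 217 and 212 CPM with siTAZ #2. The siTAZ #1 libraries were the low ones. It fell 1.8-fold (−0.85 ± 0.10, FDR = 0.0038). TNS1, the tensin of fibrillar adhesions, was at 113 and 124 CPM with siNTC, 90.2 and 88.3 CPM with siTAZ #1 and 108 and 122 CPM with siTAZ #2. It fell with siTAZ #1 (−0.41 ± 0.10, FDR = 0.035), again without overlap, and siTAZ #2 overlapped with siNTC. ACTN1, the other non-muscle α-actinin, ranged from 991 to 1394.5 CPM and was not called, with 0.08 ± 0.10 (FDR = 0.59) for siTAZ #1 and −0.28 ± 0.10 (FDR = 0.076, and 0.036 without the affected genes) for siTAZ #2.

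In the ILK-PINCH-parvin complex, log2 differences lay between −0.43 and 0.40. LIMS1, the adaptor PINCH1, was at 102 and 106 CPM with siNTC, 138 and 137 CPM with siTAZ #1 and 127 and 124 CPM with siTAZ #2, so that every siTAZ library was above siNTC. It rose by 0.40 ± 0.07 with siTAZ #1 (FDR = 0.016) and by 0.28 ± 0.07 with siTAZ #2 (FDR = 0.04), and neither call held with an offset for GC content (FDR = 0.079 and 0.081). PARVA, or α-parvin, was at 354 and 347 CPM with siNTC, 339 and 299.6 CPM with siTAZ #1 and 237 and 284 CPM with siTAZ #2. All siTAZ libraries were below siNTC, with siTAZ #2 lowest. It fell with siTAZ #2 (−0.43 ± 0.12, FDR = 0.04), at FDR = 0.067 with the GC offset. ILK, the scaffold of the complex, ranged from 382 to 449 CPM and was not called, but its canonical exons share 86.9% of their bases with TAF10, and the strand setting of the counting is not given in the sources used here, so its counts are uncertain.

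The signaling proteins around FAK fell with siTAZ #2 in 2 of 4 cases, while 14.4% of all genes tested fell. PTK2, the gene of FAK, was at 184 and 202 CPM with siNTC, 156 and 166 CPM with siTAZ #1 and 134 and 135 CPM with siTAZ #2. The groups descended in that order. It fell by 1.43-fold with siTAZ #2 (−0.52 ± 0.08, FDR = 0.0082), and the siTAZ #1 difference was −0.26 ± 0.08 (FDR = 0.084). PXN, or paxillin, the adaptor that FAK phosphorylates, was at 238 and 234 CPM with siNTC, 206 and 189.5 CPM with siTAZ #1 and 154 and 159 CPM with siTAZ #2. The order was the same as for PTK2, and again without overlap. PXN fell 1.5-fold with siTAZ #2 (−0.59 ± 0.08, FDR = 0.0046), and with siTAZ #1 it differed by −0.25 ± 0.08 (FDR = 0.076). BCAR1, the gene of the adaptor p130Cas, was at 71.3 and 86.8 CPM with siNTC, 113 and 134 CPM with siTAZ #1 and 129 and 145 CPM with siTAZ #2. Both siTAZ groups were above siNTC and overlapped with each other. BCAR1 rose by 0.65 ± 0.14 with siTAZ #1 (FDR = 0.027) and by 0.79 ± 0.14 with siTAZ #2 (FDR = 0.011). With an offset for GC content the siTAZ #2 difference was 0.28 (FDR = 0.11). TGFB1I1, or Hic-5, a relative of paxillin, ranged from 85.5 to 126 CPM and was not called with either siRNA. With siTAZ #2 its difference was −0.26 ± 0.11 (FDR = 0.14), and −0.64 with an offset for GC content (FDR = 0.0063).

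Of the zyxin, VASP and LIM proteins, CSRP1, a LIM protein of actin bundles, was at 627 and 606 CPM with siNTC, 162 and 138 CPM with siTAZ #1 and 525 and 518 CPM with siTAZ #2. Both siTAZ #1 libraries were low, and siTAZ #2 lay just below siNTC. It fell 4.11-fold with siTAZ #1 (−2.04 ± 0.10, FDR = 0.00062), and the siTAZ #2 difference was −0.24 ± 0.10 (FDR = 0.12). LPP, a zyxin relative of adhesions and smooth muscle, was at 30 and 29.7 CPM with siNTC, 93.8 and 93.5 CPM with siTAZ #1 and 55.3 and 54.5 CPM with siTAZ #2. Replicates of LPP lay close together and the groups were separate. It rose 3.14-fold with siTAZ #1 (1.65 ± 0.10, FDR = 0.00082) and 1.84-fold with siTAZ #2 (0.88 ± 0.09, FDR = 0.0023). ZYX, or zyxin, which moves to strained stress fibers, was at 383 and 374 CPM with siNTC, 345 and 312 CPM with siTAZ #1 and 302 and 277 CPM with siTAZ #2. All siTAZ libraries were below siNTC. ZYX fell with siTAZ #2 (−0.39 ± 0.09, FDR = 0.025), by −0.78 with an offset for GC content, and with siTAZ #1 the difference was −0.20 ± 0.09 (FDR = 0.16). VASP, which extends actin filaments at adhesions, was at 115 and 116 CPM with siNTC, 101 and 124 CPM with siTAZ #1 and 83.8 and 82.3 CPM with siTAZ #2. It fell with siTAZ #2 (−0.47 ± 0.11, FDR = 0.03), and siTAZ #1 overlapped with siNTC. PDLIM7, or enigma, a PDZ and LIM protein of stress fibers, was at 158 and 152 CPM with siNTC, 134 and 132 CPM with siTAZ #1 and 213 and 227 CPM with siTAZ #2. Its siTAZ #2 libraries were above siNTC and its siTAZ #1 libraries below. PDLIM7 rose with siTAZ #2 (0.51 ± 0.08, FDR = 0.0067), but the difference was 0.05 with an offset for GC content (FDR = 0.59).

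The siRNAs were also compared with each other, which asks whether they left these genes at different levels. Of the 36 genes, 22 differed, 61.1% against 28.6% of all genes tested, with 13 lower and 9 higher after siTAZ #1 than after siTAZ #2. The background was 13.4% lower and 15.2% higher, and the median log2 difference of the 36 genes was 0.13, beside −0.01 over all genes. The genes that were lower after siTAZ #1 included ITGA5 (−1.93 ± 0.11, FDR = 0.00057), CSRP1 (−1.80 ± 0.10, FDR = 0.00057), ITGB3 (−1.56 ± 0.12, FDR = 0.00099) and ITGB8 (−1.52 ± 0.15, FDR = 0.0018). Those that were higher included ITGA2 (1.76 ± 0.13, FDR = 0.001), VCL (1.48 ± 0.08, FDR = 0.00057), TLN2 (1.22 ± 0.13, FDR = 0.0024) and TLN1 (0.94 ± 0.09, FDR = 0.0018). Among the αv integrins, ITGAV differed by −0.66 ± 0.09 (FDR = 0.0042) and ITGB5 by −0.73 ± 0.08 (FDR = 0.0024), both lower after siTAZ #1. WWTR1 itself was lower after siTAZ #1 than after siTAZ #2, by −0.70 ± 0.10 (FDR = 0.005), and the part of this difference in those of the 22 genes was not tested. Without the affected genes 25 differed, against 38% of all genes, with ITGA8, ITGB1 and TGFB1I1 added on the higher side. An offset for GC content gave 12 lower and 12 higher, against 13.4% and 17.1% of all genes. TNS1 was lost with it, and ITGA3, ZYX and TGFB1I1 were added on the higher side. ITGA2, ITGA5, ITGA11, ITGB3, ITGB8, TLN1, TLN2, VCL and CSRP1 differed under every alternative run, whereas edgeR's exact test on 4 libraries called 10, and 10.6% of all genes.

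**Figure D4:**
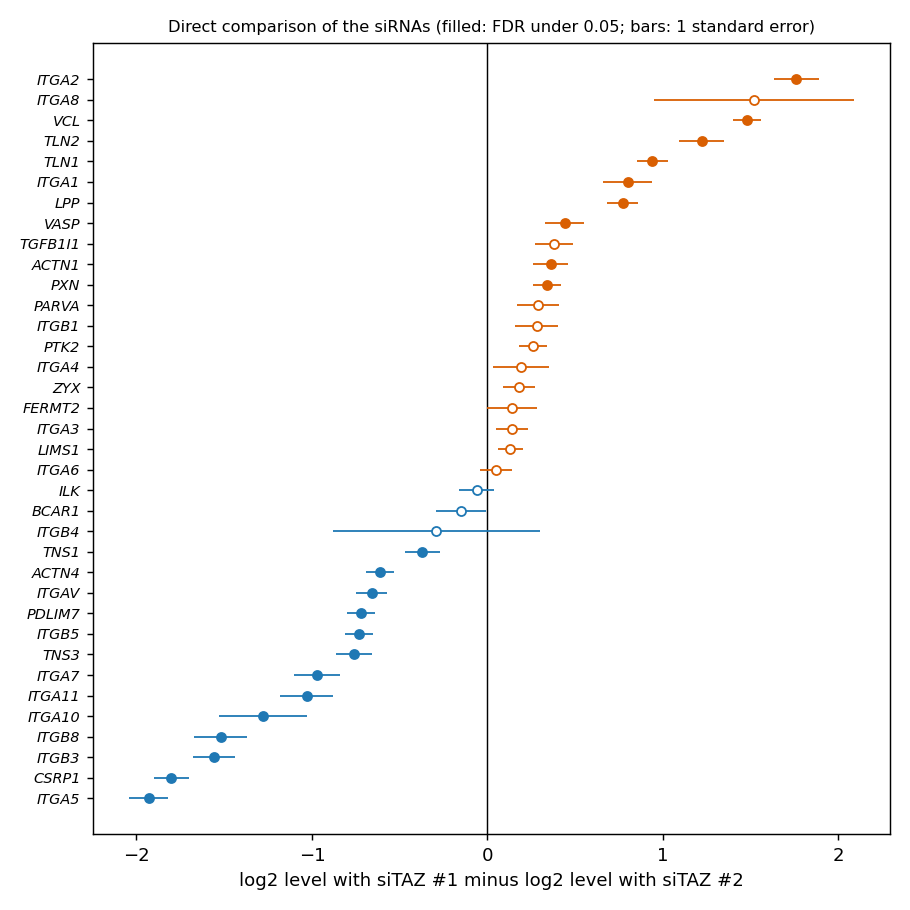
Log2 level with siTAZ #1 minus log2 level with siTAZ #2 for the 36 genes tested, sorted, with bars of 1 standard error and filled points at an FDR under 0.05 (orange above 0, blue below). ITGA5 (−1.93) and CSRP1 (−1.80) lie at the lower end, and ITGA2 (1.76) and VCL (1.48) at the upper end.

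A further list of 79 integrin and focal adhesion genes outside the 37 was read in the same fit, and 68 of them were tested. FLNA, FHL1, PARVB and ARHGEF6 lie among the affected genes, with FLNA at 2921 and 14.6 CPM in the siTAZ #1 libraries. None of these was called in any comparison, and their changes with siTAZ #1 could hardly be called. With siTAZ #1, 12 were lower and 4 higher, 23.5% in all against 20.6% of all genes, with a median log2 fold change of −0.05. PDLIM3, a LIM protein of actin bundles in muscle, rose from 12.9 and 9.15 CPM to 34.8 and 32 CPM (1.60 ± 0.23, FDR = 0.0077). FYN, a Src family kinase, fell from 38.5 and 39.1 CPM to 17 and 23.3 CPM (−0.94 ± 0.17, FDR = 0.016). With siTAZ #2, 12 were lower and 7 higher, 27.9% against 28.5% of all genes, with a median of 0.02. NEDD9, a relative of p130Cas, rose 10.7-fold with siTAZ #2, from 11 and 6.63 CPM to 88.2 and 102 CPM (3.43 ± 0.28, FDR = 0.0011). FERMT3, the kindlin of blood cells, fell from 5.26 and 2.84 CPM to 1.45 and 1.03 CPM (−1.70 ± 0.42, FDR = 0.032). ITGAX, a leukocyte integrin subunit, had counts of 4, 2, 8, 18, 21, 17 in the libraries of siNTC, siTAZ #1 and siTAZ #2 in turn, with PTPRC at most 0.13 CPM in any library. It was called higher with siTAZ #2 (FDR = 0.036) but passed the filter through its siTAZ #2 libraries alone. Lower calls made up 17.6% of the list in each case, against 9.78% of all genes with siTAZ #1 and 14.4% with siTAZ #2, and higher calls 5.88% and 10.3%, against 10.8% and 14.1%. Between the siRNAs 26 of the 68 genes differed, 38.2% against 28.6% of all genes, with 16 lower and 10 higher after siTAZ #1. Without siNTC replicate 1 the list held 1 call with siTAZ #1, where 4.05% of all genes were called, and 9 with siTAZ #2, where 10.2% were. Without the genes from RANGAP1 onward 27 of 64 were called with siTAZ #1, 42.2% against 30.5% of all genes, and 25 with siTAZ #2, 39.1% against 38.7%.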

How the data were processed

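The authors sequenced RNA on an Ion Proton, mapped the reads to hg19 with TMAP, and deposited for each gene symbol the raw count given by HTSeq 0.6.1, not normalized. The strand setting is not given in the sources used here. Of 23368 entries, 13 whose symbol had turned into a date were left out (0.0458% to 0.0506% of the counts of a library). Counts were TMM-normalized, filtered by group with filterByExpr and tested in R 4.3.3 with edgeR 4.0.16 (quasi-likelihood F test, all 6 libraries fitted together, Benjamini-Hochberg over 14053 genes). The standard error is the log2 fold change divided by the square root of F. Chi-square between replicates averaged 5.78 to 26.8 per gene, above sampling noise. On simulated counts this test recovered most planted changes in intact libraries or with the genes from RANGAP1 onward left out, but none when few counts of those genes were imitated in a library. The simulation differed from the data, since few genes were changed, all by the same factor, and every gene had the same dispersion. In the data, with those genes kept, the test called 2889 genes with siTAZ #1 and 4004 with siTAZ #2 against siNTC. Values are given in every library for genes called against siNTC, and by range for the others. The 3 largest called changes were named from the further list in each comparison, apart from a gene that is not reported here. The members, lists and tests were chosen with earlier results of these data known, ligands and markers included. Alternatives were DESeq2 1.42.0, edgeR's exact test on 4 libraries, scaling by RLE, upper quartile or library totals, genes unfiltered or with a mean count of at least 50, omission of genes from RANGAP1 onward, a fit of 4 libraries, a replicate block and leaving out each library. Chosen after seeing the data were a GC offset (GC content known for 94.6% of genes tested) and a crossed block. Promoter windows are from RefSeq, GRCh38.p14. Transcript lengths, GC content and shared exons are from GENCODE on GRCh37.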

Additional observations from a re-analysis of the deposited data

Results flagged for a closer look

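The direct test of siTAZ #1 against siTAZ #2 picked out the 22 genes whose response differed between the siRNAs. Each value is the log2 level after siTAZ #1 minus that after siTAZ #2. Of the integrin subunits, the differences were 0.80 for ITGA1, 1.76 for ITGA2, −1.28 for ITGA10, −1.03 for ITGA11, −0.97 for ITGA7, −1.93 for ITGA5, −0.66 for ITGAV, −1.56 for ITGB3, −0.73 for ITGB5 and −1.52 for ITGB8. Among the links to actin they were 0.94 for TLN1, 1.22 for TLN2, 1.48 for VCL, 0.36 for ACTN1, −0.61 for ACTN4, −0.37 for TNS1 and −0.76 for TNS3. The remaining genes were PXN at 0.34, VASP at 0.44, LPP at 0.77, CSRP1 at −1.80 and PDLIM7 at −0.72. Some of these calls depended on the processing. TNS1 was called in 8 of 18 alternatives, VASP in 10, and PXN and ACTN1 in 11 each. ITGB8 was the gene that fell with siTAZ #1 and rose with siTAZ #2 against siNTC, with both calls made, but the siTAZ #1 call (FDR = 0.042) was lost in 8 of 17 alternatives, at FDR = 0.42 in edgeR's exact test.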

How the results depend on the processing

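No direction of a called gene reversed under any alternative, over 108 results of 36 genes, while 129 calls were lost and 85 gained. By the exact test of edgeR on 4 libraries, 7 of the 37 members were called with siTAZ #1, 31 with siTAZ #2 and 10 between the siRNAs, against 7.41%, 45.6% and 10.6% of all genes, and of the further list 3, 33 and 8 with siTAZ #1, siTAZ #2 and between the siRNAs. The further list had 25 calls with siTAZ #1 under DESeq2, 27 without the genes from RANGAP1 onward, and 32 with siTAZ #2 in a fit of 4 libraries. In these settings 28.2%, 30.5% and 43.4% of all genes were called. Leaving out each library in turn gave 6 to 18 calls among the 37 genes with siTAZ #1, 11 to 30 with siTAZ #2 and 17 to 26 between the siRNAs, and 0 to 33, 9 to 32 and 16 to 36 in the further list. The 0 calls came without siNTC replicate 2, in edgeR's quasi-likelihood test, where 23 of the 68 genes tested had an unadjusted p under 0.05. No other tool was run on that subset. The share of all genes called moved as well when each library was left out. Against siNTC it was lowest without a siNTC library and highest without siTAZ #1 replicate 1, for either siRNA. Between the siRNAs it was lowest without a siTAZ #2 library and highest without siTAZ #1 replicate 1. The ranges of calls are therefore not particular to the listed genes. The cause of these shifts in calls was not tested.

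Replicate numbers only name the libraries. Same-numbered libraries of the siRNAs correlated at −0.284 in their deviations over 11531 genes, and siNTC with siTAZ #1 and #2 at −0.01 and 0.021. With the replicate block, 9, 18 and 18 of the 37 genes and 6, 12 and 21 of the further list were called, beside 12%, 19.6% and 20.4% of all genes. The crossed block gave 22 of the 37 genes between the siRNAs, beside 27.7% of all genes.

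Among results that were not called, the sign turned in 35 values, none beyond 0.2 and none at an FDR under 0.24. For ITGA5 with siTAZ #2 the value was −0.0004 with DESeq2, −0.00031 with RLE size factors and −0.014 with no filter on low counts. With no filter, with upper-quartile scaling and without the genes from RANGAP1 onward, ITGB1 with siTAZ #1 was at −0.0057, −0.012 and −0.0037. With library totals, TNS1 and ILK with siTAZ #2 were at 0.0021 and 0.02. The GC offset gave −0.097 for ITGA5 and −0.088 for ACTN4 with siTAZ #2, −0.13 for ITGB1 and 0.016 for VASP with siTAZ #1, and −0.048 for ITGA6, 0.018 for ITGB4, 0.033 for ILK and 0.20 for BCAR1 between the siRNAs. Leaving out each library in turn gave, with siTAZ #1, −0.29 to 0.016 for ITGA11, −0.12 to 0.14 for ITGB1, −0.0072 to 0.14 for TLN1, −0.0017 to 0.11 for VCL, −0.028 to 0.18 for ACTN1, −0.20 to 0.015 for ILK and −0.19 to 0.11 for VASP. With siTAZ #2 the ranges were −0.10 to 0.096 for ITGA5, −0.029 to 0.073 for ACTN4, −0.15 to 0.045 for TNS1 and −0.10 to 0.035 for ILK. Between the siRNAs they were −0.031 to 0.38 for ITGA4, −0.63 to 0.05 for ITGB4, −0.044 to 0.3 for FERMT2 and −0.18 to 0.04 for ILK.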

Other observations

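Of 16 genes of integrin ligands listed for comparison, 15 were tested. With siTAZ #1, 3 were lower and 6 higher, and with siTAZ #2, 6 were lower and 3 higher, 60% in each case against 20.6% and 28.5% of all genes tested. The ligands named in the following sentences were chosen after their values were seen. LAMB1, a laminin β chain, was at 610.3 and 593 CPM with siNTC, 1052 and 983 CPM with siTAZ #1 and 1660.4 and 1885 CPM with siTAZ #2, and it rose with both siRNAs (0.76 ± 0.09, FDR = 0.0052, and 1.56 ± 0.10, FDR = 0.00064). EDIL3, a secreted ligand of αv integrins, rose with both as well, from 64.8 and 68 CPM to 145 and 174 CPM and 131 and 139.6 CPM. LAMA4, a laminin α chain, was at 433 and 421 CPM with siNTC, 298 and 297 CPM with siTAZ #1 and 199.7 and 220.4 CPM with siTAZ #2, and it fell with both.

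LAMC1, the γ chain found in most laminins, was at 872 and 861 CPM with siNTC, 1224 and 1197 CPM with siTAZ #1 and 532 and 554 CPM with siTAZ #2. It rose with siTAZ #1 and fell with siTAZ #2, and the siRNAs differed by 1.16 ± 0.07 (FDR = 0.00072). FBN1, the microfibril protein fibrillin-1, POSTN, the matricellular protein periostin, and VCAM1, the ligand of α4β1, were also called higher with siTAZ #1 and lower with siTAZ #2, with differences between the siRNAs of 1.64 ± 0.10, 1.45 ± 0.09 and 1.35 ± 0.14 on the log2 scale. The lower call of VCAM1 with siTAZ #2 (FDR = 0.045) was made in only 9 of 17 alternatives. LAMA5, another laminin α chain, was at 8.5 and 10.9 CPM with siNTC, 14 and 14.7 CPM with siTAZ #1 and 48.4 and 51.5 CPM with siTAZ #2, and it rose with siTAZ #2 (2.36 ± 0.17, FDR = 0.00081). FN1, or fibronectin, the ligand of α5β1, was at 8124 and 8122 CPM with siNTC, 9753 and 8308 CPM with siTAZ #1 and 6169 and 6174 CPM with siTAZ #2, and it fell with siTAZ #2 (−0.40 ± 0.11, FDR = 0.041).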
